A study of Mus musculus with 6 samples.

Results

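A set of 10 genes of the megakaryocyte and platelet programme were followed through long-term haematopoietic stem cells (LT-HSCs) of Dcaf8 knockout and wild-type mice. They are Itga2b, Pf4, Gp1bb, Gp9, Gp5, Ppbp, Clec1b, Nfe2, Treml1 and Plek, chosen by name as genes known from megakaryocytes and platelets, and all 10 were found among the 55357 Ensembl identifiers of the count table. A total of 9 passed the filter on low counts and were among the 14592 genes tested, and Gp1bb did not pass. The groups were 3 young Dcaf8 knockout mice and 3 young wild-type mice, with 1 library of 50 sorted bone marrow cells per mouse, so replicates were separate animals. The gate took cells without lineage markers that carried Sca-1, c-Kit and CD150 and lacked CD48. The sources used here do not state the knockout allele, the tissues in which Dcaf8 was deleted, the mouse strain or the ages in weeks. Dcaf8 codes for a protein that brings substrates to a cullin-based ubiquitin ligase, and the comparison is of LT-HSCs from knockout and wild-type mice.

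Megakaryocytes are the large marrow cells that shed platelets, the cell fragments that stop bleeding. Some LT-HSCs already transcribe genes of this lineage before they are committed to it, which is called priming, and CD150-bearing stem cells are known for a platelet-biased fraction marked by Vwf. This branch is driven by transcription factors such as GATA1, FLI1, RUNX1 and NF-E2. In bulk libraries such as these, fewer primed cells and less of a transcript per cell cannot be told apart.

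Total counts per library ranged from 14461864 in knockout replicate 2 to 22386387 in knockout replicate 1. Dcaf8 stood at 290.5, 293 and 204 CPM (a library's counts set against its total, corrected by TMM for composition) in wild-type replicates 1 to 3 and at 74.3, 38.1 and 45.2 CPM in knockout replicates 1 to 3. The knockout libraries thus all lay below the wild-type libraries, as their labels say (exact permutation p = 0.1, two-sided, the smallest that 3 against 3 can give). Even this gene did not pass over all genes by edgeR's quasi-likelihood test (log2 fold change -2.28 ± 0.28, SE, n = 3 per group; adjusted p = 0.739), while DESeq2 gave it an adjusted p of 1.98e-09. All 10 LT-HSC marker genes looked up, among them Hlf, Mecom, Procr, Kit and Ly6a, were counted in every library. Transcript of Cd48, whose protein the gate excluded, stood at 0.0501 to 34.4 CPM of the total count. A pair of libraries stood apart from the rest. Wild-type replicate 2 held 7668 CPM of neutrophil granule genes, where the other 5 libraries held 6.79 to 30.7 CPM, and knockout replicate 3 was the only one with more than 1.24 CPM of Xist and with no Ddx3y counts, the pattern of a female mouse. Their part in the results was not tested beyond the values without each of them given below.

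The megakaryocyte programme was present in part in LT-HSCs of either genotype, with some genes abundant and others uncounted in all 6 libraries. Per kilobase of exon, the scale on which levels of different genes are compared here, Pf4 (253 ± 75.1 CPM per kilobase in wild-type, SD, n = 3) and Nfe2 (224 ± 21.5) led the wild-type levels. They were followed by Gp9 (108 ± 10.4), Itga2b (89.3 ± 20.5), Gp5 (55.3 ± 24.1), Plek (52.1 ± 10.3), Treml1 (33.4 ± 18.3) and Ppbp (15.6 ± 9.66). Clec1b, at 1.41 ± 1.00 CPM per kilobase, was the lowest of these 9. Gp1bb, at 0.282 ± 0.421, is left out of the order because most of its exonic bases are shared with another gene. The means of Gp5 and Plek differed by less than the SD of either, and those of Pf4 and Nfe2 by less than the SD of Pf4 but more than that of Nfe2. Averaged over all 6 libraries, Pf4 stood above 99.1% of the genes tested, Nfe2 above 98.8%, Gp9 above 96.7%, Itga2b above 94.7% and Clec1b above 13.7%. Products of maturing megakaryocytes differed widely in whether they were counted. Gng11, a G protein subunit gene, stood at 86.6 to 132 CPM over the 6 libraries, and Gp1ba, a platelet receptor subunit gene, at 25.4 to 58.3 CPM. Gp6, the collagen receptor of platelets, Myl9, a myosin light chain, and F13a1, a coagulation factor subunit, had 0 counts in each of the 6 libraries, which allows at most 0.134 to 0.207 CPM per library (3 counts, counting error only). Tubb1, the tubulin of platelet rings, had 59 to 214 counts per library. Apart from Gp1ba, these genes were picked for mention after their values were seen.

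**Figure D1:**
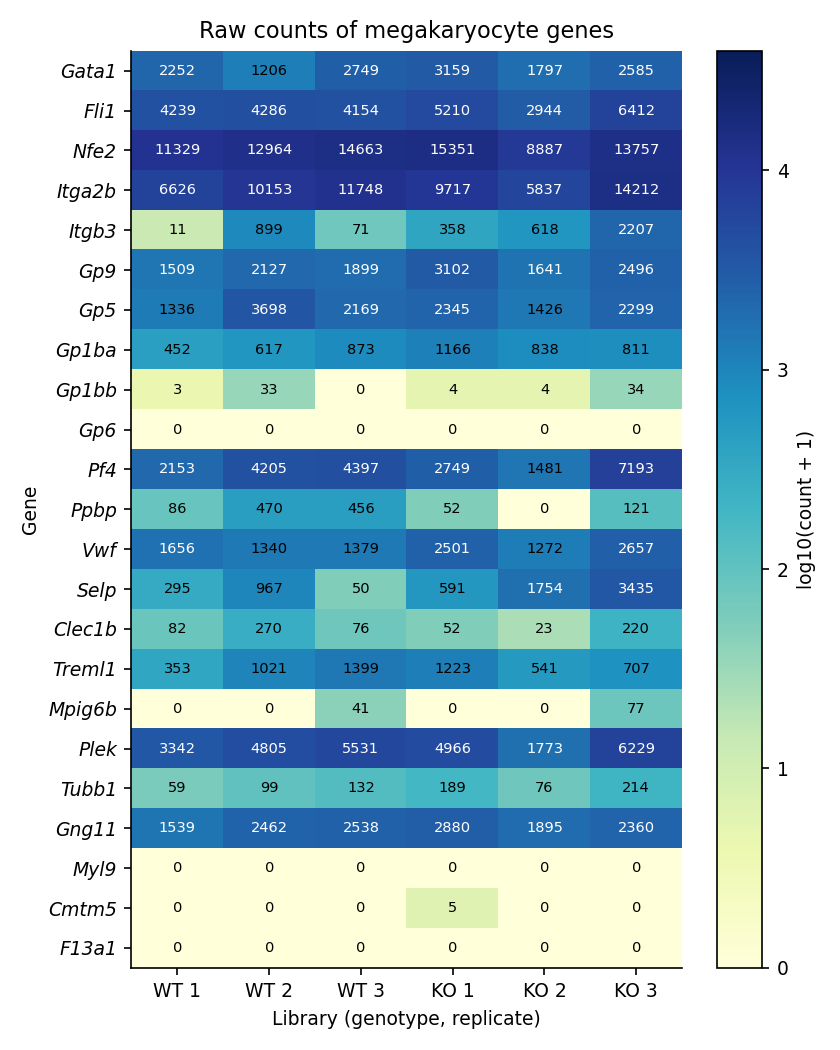
Raw read counts (number in each cell, colour on a log10 scale) of megakaryocyte genes in rows against the 6 libraries in columns, for a selection of genes made after the values were seen. Nfe2 and Itga2b have at least 5837 counts in every library, while Gp6, Myl9 and F13a1 have 0 in each.

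None of the 9 members tested passed edgeR's quasi-likelihood test between genotypes at an adjusted p under 0.05, the threshold used throughout; the same held for 14592 of 14592 genes, a background of 0.0% called. The smallest adjusted p of a member was 0.755, for Ppbp. At an unadjusted p under 0.05 there was 1 member, Ppbp, which had lower values in knockout, against 2.35% of all genes tested in that direction, 3.47% in the other and 5.82% in both. DESeq2 called 0 members, against 0.861% of the genes to which it gave an adjusted p. Values were higher in knockout for 3 members and lower for 6, beside 50.9% higher over all genes tested. The median log2 fold change of the 9 was -0.15, beside 0.01 over all genes tested. Neither the split nor the sign of the median was stable: 5 members were higher without wild-type replicate 2 (median 0.02), wild-type replicate 3 (0.0053) or knockout replicate 2 (0.02). By contrast 1 was higher without wild-type replicate 1 (median -0.25), without knockout replicate 3 (-0.27) or with limma-voom (-0.22). The summed level of the 10 members was 1862 ± 324 TMM-normalised CPM for wild-type, and for knockout it was 1792 ± 321 (SD, n = 3 per group), a difference smaller than the spread between animals.

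**Figure D2:**
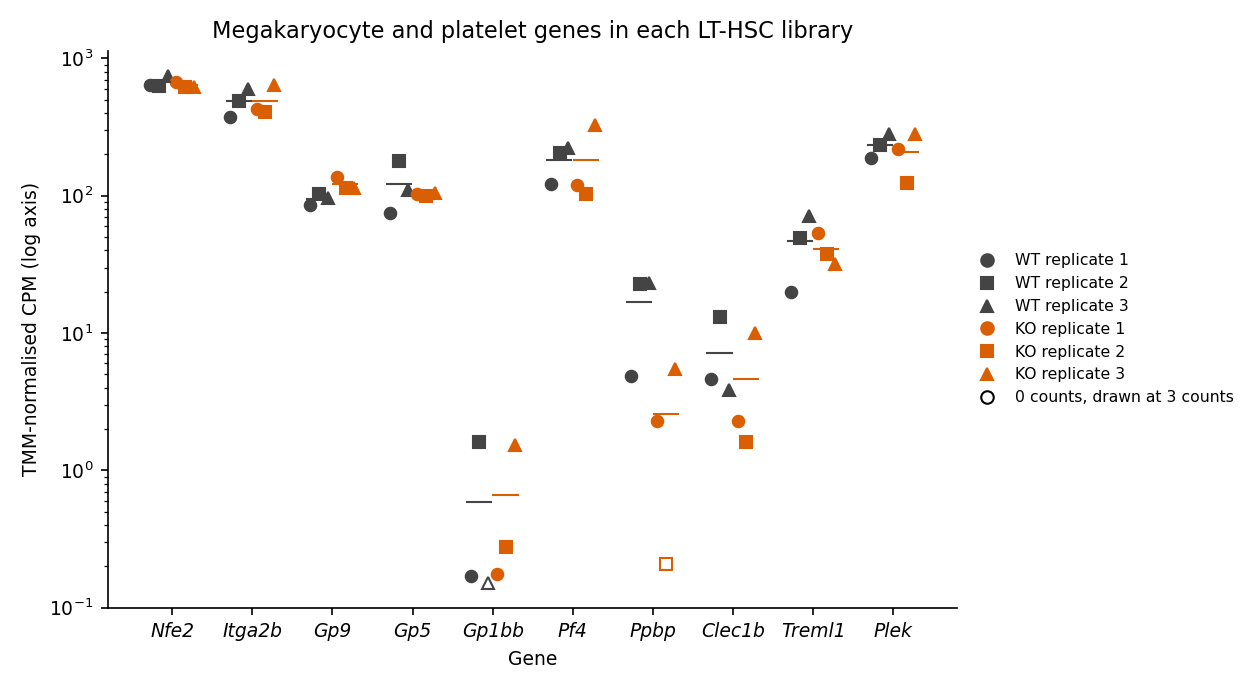
TMM-normalised CPM (log axis) of the 10 genes in each library, with a horizontal line for the mean of each genotype; open symbols are libraries with 0 counts, drawn at the level of 3 counts. The genotypes overlap for each gene but Gp9, where the 3 knockout libraries (113 to 136 CPM) lie above the 3 wild-type libraries (85.0 to 103 CPM).

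Nfe2 encodes the haematopoietic subunit of NF-E2, the factor without which megakaryocytes fail to release platelets. It stood at 638, 628 and 744 CPM in wild-type and at 673, 619 and 622 CPM in knockout replicates 1 to 3. It varied least of the members: the highest library was 1.20 times the lowest, and the genotypes overlapped. The log2 fold change (knockout minus wild-type) was -0.07 ± 0.11 (SE, n = 3 per group), and its 95% interval, from -0.32 to 0.18, corresponds to 0.801 to 1.13 times the wild-type level. The small Maf genes, whose proteins pair with the Nfe2 product to bind DNA, did not pass the test either. Mafg stood at 27.9, 36.0 and 26.5 CPM in wild-type and 44.9, 35.3 and 45.3 CPM in knockout. Mafk had 157, 76.5 and 127 CPM, then 147, 141 and 64.6 CPM in the same order.

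Itga2b encodes integrin αIIb (CD41), a subunit of the platelet fibrinogen receptor and an early surface marker of this lineage. Its level was 373, 492 and 596 CPM in wild-type and 426, 406 and 643 CPM in knockout replicates 1 to 3. The lowest and the highest library were thus of different genotypes, and the spread within a genotype was far wider than the difference of the means, 487 ± 112 and 492 ± 131 CPM (SD, n = 3 per group). Its log2 fold change was 0.02 ± 0.23 (SE; 95% interval -0.52 to 0.56), and -0.23 without knockout replicate 3. Itgb3, which encodes the β3 partner of αIIb, varied far more. Wild-type libraries held 11, 899 and 71 Itgb3 counts and knockout libraries 358, 618 and 2207. Per Itgb3 count there were 602, 11.3 and 165 Itga2b counts in wild-type and 27.1, 9.45 and 6.44 in knockout, so that the libraries of the genotypes overlapped. The Itgb3 log2 fold change of 1.68 ± 1.00 (SE) did not pass (edgeR adjusted p = 0.918), and over the fits that left out 1 library it ranged from 0.71 to 4.61.

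The GPIb-IX-V complex is the receptor by which platelets catch von Willebrand factor on a damaged vessel wall. Its subunits are encoded by Gp1ba, Gp1bb, Gp9 and Gp5, and 3 of these are members. Gp9, which encodes the small subunit needed for surface expression of the complex, stood at 85.0, 103 and 96.4 CPM in wild-type and at 136, 114 and 113 CPM in knockout replicates 1 to 3. Every knockout library lay above every wild-type library, which was the case for 1 of the 9 members tested and for 5.91% of all genes tested, with 4.43% the other way round and 10.3% in all. Its log2 fold change was 0.35 ± 0.19 (SE; 95% interval -0.08 to 0.79), with an edgeR adjusted p of 0.883 and an unadjusted p of 0.0989, and it lay between 0.25 and 0.42 whichever library was left out. Gp1ba, the subunit that binds von Willebrand factor and no member of the list, stood at 25.4, 29.9 and 44.3 CPM in wild-type and 51.1, 58.3 and 36.7 CPM in knockout, with a log2 fold change of 0.52 ± 0.34 (SE; adjusted p = 0.925).

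Gp5 encodes the subunit that joins the complex last and is a thrombin substrate. It was highest in wild-type replicate 2, at 179 CPM, beside 75.2 and 110.1 CPM in wild-type replicates 1 and 3. The knockout libraries stood close together, at 103, 99.3 and 104 CPM, inside the wild-type range. The log2 fold change of -0.26 ± 0.31 (SE) was 0.14 without wild-type replicate 2, the library with the neutrophil transcripts. Raw Gp9 counts per Gp5 count, a ratio set against other libraries and not a comparison of the genes' levels, came to 1.13, 0.575 and 0.876 for the wild-type libraries; the knockout libraries gave 1.32, 1.15 and 1.09. Whether these ratios differ between genotypes was not tested, and they overlapped.

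Gp1bb, the disulfide-linked β chain of GPIb, was nearly uncounted. Wild-type replicates 1 to 3 gave 3, 33 and 0 counts and knockout replicates 1 to 3 gave 4, 4 and 34, and no fold change is given. In the GENCODE annotation of GRCm38, 91.1% of its exonic bases are shared with Sept5, a gene on the same strand that itself drew 8 counts over all 6 libraries. The sources used here do not state how reads in shared exons were assigned, so the count of Gp1bb cannot be set beside those of its partners, and the part of the overlap in it was not tested. The upstream stretches of Gp9 and Gp5, subunits of the same complex whose libraries were ordered differently, are shown here (RefSeq, GRCm38.p6, 250 bases before the annotated start, 5′ to 3′ on the gene's strand). Capitals mark matches to AGATAA, a form of the site bound by GATA factors, or to TGTGGT, a form of the site bound by RUNX factors, on either strand. Other forms of these sites were not searched and are not marked. Gp9 spans chr6:87777820-87778069 on the plus strand and Gp5 chr16:30310782-30311031 on the minus strand.
Gp9: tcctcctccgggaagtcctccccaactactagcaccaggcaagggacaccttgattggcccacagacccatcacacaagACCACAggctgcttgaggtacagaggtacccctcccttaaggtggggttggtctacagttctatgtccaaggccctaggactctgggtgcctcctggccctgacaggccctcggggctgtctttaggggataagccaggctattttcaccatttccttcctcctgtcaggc
Gp5: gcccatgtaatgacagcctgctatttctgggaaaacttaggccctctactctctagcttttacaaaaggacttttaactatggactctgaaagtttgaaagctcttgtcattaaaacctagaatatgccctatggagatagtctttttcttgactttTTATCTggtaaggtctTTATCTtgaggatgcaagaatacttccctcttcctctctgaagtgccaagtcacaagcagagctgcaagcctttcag

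Pf4 and Ppbp encode the platelet chemokines of the α granule, platelet factor 4 and pro-platelet basic protein. They are neighbours on chromosome 5, on the same strand, and their annotated starts lie 3917 bases apart in GRCm38.p6. Pf4 protein made by megakaryocytes is also known to hold stem cells in quiescence. The pair ordered these libraries differently. Pf4 stood at 121, 204 and 223 CPM in wild-type and at 120.5, 103 and 325 CPM in knockout replicates 1 to 3. The knockout libraries spanned the whole wild-type range, with the highest value in replicate 3. For Pf4 the log2 fold change was 0.02 ± 0.45 (SE; 95% interval -1.03 to 1.08), and -0.70 without knockout replicate 3 (edgeR adjusted p = 0.974). That is the library with Xist and without Ddx3y counts, whose part was not tested.

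Ppbp stood at 4.84, 22.8 and 23.1 CPM in wild-type and at 2.28, 0 and 5.47 CPM in knockout replicates 1 to 3. In raw counts these were 86, 470 and 456 against 52, 0 and 121, and the 0 of knockout replicate 2, the shallowest library, allows at most 0.209 CPM (3 counts). Wild-type replicates 2 and 3 stood well above the other 4 libraries, but wild-type replicate 1 lay below knockout replicate 3, so that the genotypes overlapped. The means were 16.9 ± 10.5 CPM in wild-type and 2.58 ± 2.75 CPM in knockout (SD, n = 3 per group). The log2 fold change was -2.57 ± 0.87 (SE; 95% interval -4.54 to -0.60), with an unadjusted p of 0.0162 and an adjusted p of 0.755 by edgeR, and an adjusted p of 0.821 by DESeq2. Its unadjusted p lay on both sides of 0.05 in the alternative fits. It was 0.0641 by DESeq2, 0.0653 by limma-voom and 0.141 with edgeR's legacy fit. By edgeR it was 0.0511 to 0.0704 without wild-type replicate 2 or 3 or knockout replicate 1 or 2. The remaining edgeR fits gave 0.0038 to 0.0183, the smallest without wild-type replicate 1. In the 14 alternative fits its adjusted p lay between 0.466 and 1.00 and its log2 fold change between -4.73 and -2.17. Per Ppbp count there were 25.0, 8.95 and 9.64 Pf4 counts in wild-type replicates 1 to 3, and 52.9, at least 494 and 59.4 in knockout replicates 1 to 3. All 3 knockout ratios lay above all 3 wild-type ratios, that of knockout replicate 2 resting on 0 Ppbp counts. Among single genes, the groups did not overlap for 10.3% of all genes tested, with knockout above for 5.91%. The Itga2b to Itgb3 and Gp9 to Gp5 ratios overlapped between genotypes. The Pf4 to Ppbp ratio was chosen after the values were seen and is given with no test.

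**Figure D3:**
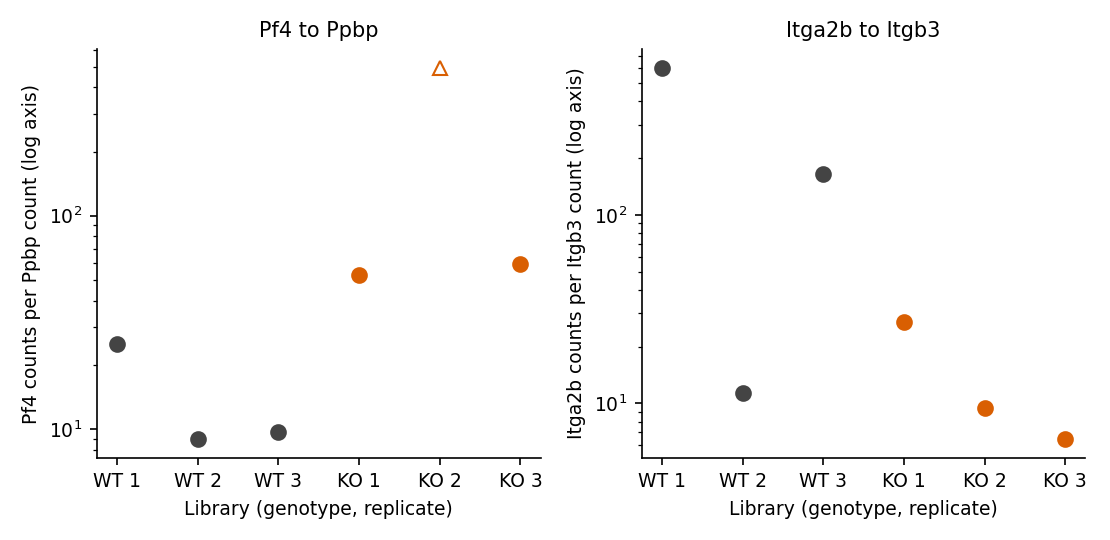
Raw Pf4 counts per Ppbp count (left) and raw Itga2b counts per Itgb3 count (right) in each library, on log axes; the open triangle is a lower bound, computed with 3 Ppbp counts in place of 0. The Pf4 to Ppbp ratio is 8.95 to 25.0 in wild-type and at least 52.9 in knockout libraries, and the Itga2b to Itgb3 ratio overlaps between genotypes. The Pf4 to Ppbp ratio was chosen after the values were seen and was not tested.

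The stretches before both chemokine genes are shown because neighbouring genes differed in their order of libraries (RefSeq, GRCm38.p6, 250 bases before the annotated start, plus strand, chr5:90772185-90772434 for Pf4 and chr5:90768268-90768517 for Ppbp). Neither holds a match to the motifs searched on either strand, which were AGATAA for GATA factors, then TGTGGT for RUNX factors, then CAGGAAG for ETS factors and last TGAGTCA for NF-E2 and AP-1, which says only that these letters are not in the window. The AGATAA of Pf4 lies 36 to 41 bases past the annotated start and that of Clec1b 37 to 42 bases past it. Both are in capitals in stretches of 30 bases, chr5:90772455-90772484 for Pf4 and chr6:129397317-129397346 for Clec1b, plus strand.
Pf4: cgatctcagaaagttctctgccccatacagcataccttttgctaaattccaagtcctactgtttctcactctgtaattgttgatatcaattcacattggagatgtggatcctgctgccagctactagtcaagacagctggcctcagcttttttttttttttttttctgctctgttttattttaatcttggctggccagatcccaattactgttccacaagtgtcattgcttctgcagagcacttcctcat
Ppbp: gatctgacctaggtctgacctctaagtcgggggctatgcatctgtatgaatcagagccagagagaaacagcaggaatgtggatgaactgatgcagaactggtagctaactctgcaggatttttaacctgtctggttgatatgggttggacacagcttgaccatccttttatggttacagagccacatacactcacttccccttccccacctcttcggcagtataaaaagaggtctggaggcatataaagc
Pf4 past the start: actgggcaggcagtgaAGATAAaacgtgct
Clec1b past the start: ccttcactcagagctgaAGATAAgagagca

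A RefSeq window from 250 bases before to 50 bases after the start was at hand for 9 of the 10 members. In it AGATAA was found for 3 members (Pf4, Gp5 and Clec1b) and in 11.2% of all 32851 windows of that length, and TGTGGT for 1 member (Gp9) and in 16.8%. CAGGAAG was found for 0 of the 9 members and in 13.3% of all windows, and TGAGTCA for 0 and in 5.20%. No matches in the members' windows overlap one another, and a match is a description of letters, not of binding.

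Clec1b encodes CLEC-2, the podoplanin receptor of platelets and megakaryocytes. It stood at 4.62, 13.1 and 3.86 CPM in wild-type and at 2.28, 1.60 and 9.95 CPM in knockout replicates 1 to 3, or 23 to 270 counts per library. A single library in each genotype was high, wild-type replicate 2 and knockout replicate 3, and the remaining 4 lay between 1.60 and 4.62 CPM. The log2 fold change of -0.57 ± 0.81 (SE) turned to 0.23 without wild-type replicate 2, and it was -1.86 when knockout replicate 3 was left out. Treml1, which encodes the α-granule receptor TLT-1, stood at 19.9, 49.5 and 71.0 CPM in wild-type and 53.6, 37.7 and 31.98 CPM in knockout. The knockout libraries lay inside the wild-type range, and the log2 fold change of -0.19 ± 0.46 (SE) was 0.23 without wild-type replicate 3.

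Plek encodes pleckstrin, a major protein kinase C substrate of platelets that white blood cells express too. Its level was 188, 233 and 281 CPM in wild-type and 218, 123 and 282 CPM in knockout replicates 1 to 3. Replicate 3 was high in both genotypes and knockout replicate 2 was lowest, and the log2 fold change was -0.15 ± 0.29 (SE; 95% interval -0.83 to 0.53). In the GENCODE annotation 4.44% of its exonic bases overlap Cnrip1 on the opposite strand, and the sources used here do not state whether counting used strand.

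**Figure D4:**
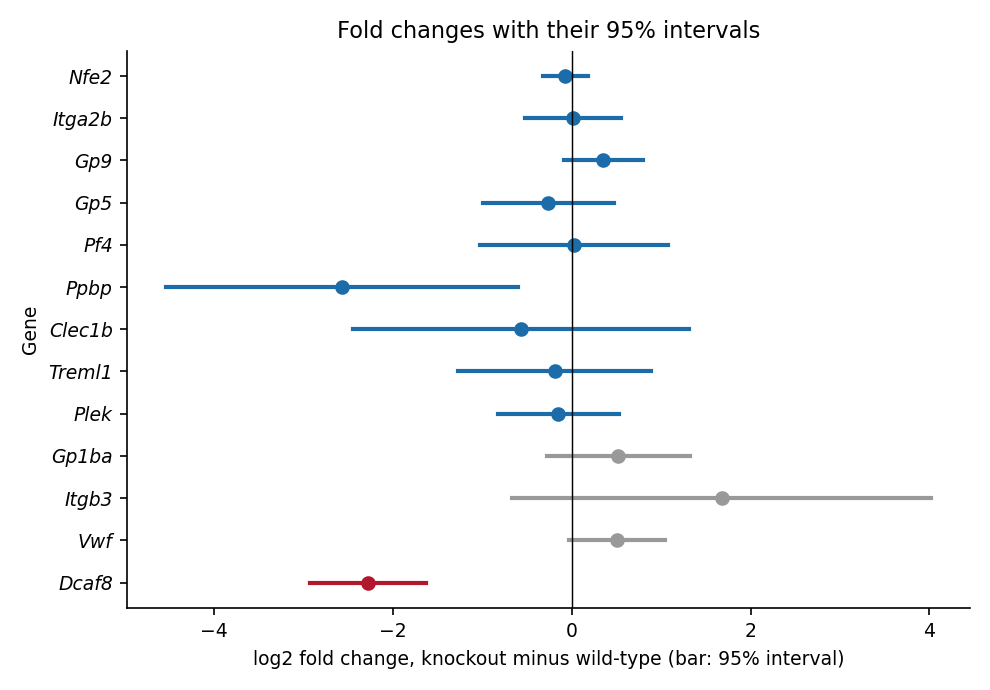
Log2 fold change, knockout minus wild-type, with its 95% interval from edgeR for the 9 members tested (blue), 3 partner genes (grey) and Dcaf8 (red). The interval of Nfe2 is the narrowest of the members, -0.32 to 0.18, and that of Ppbp, -4.54 to -0.60, is the only member interval that does not reach 0; no gene passed after adjustment.

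Members did not rank the libraries alike. Of the 10, 3 were highest in wild-type replicate 2 (Gp5, Clec1b and Gp1bb), 3 in wild-type replicate 3 (Nfe2, Ppbp and Treml1), 3 in knockout replicate 3 (Itga2b, Pf4 and Plek) and 1 in knockout replicate 1 (Gp9). For Gp1bb that order rests on 33 counts in wild-type replicate 2 beside 34 in knockout replicate 3 (1.60 and 1.54 CPM). Knockout replicate 2 was lowest for 5 (Pf4, Ppbp, Clec1b, Nfe2 and Plek) and wild-type replicate 1 for 4 (Itga2b, Gp9, Gp5 and Treml1). The members took 0.149 to 0.213% of all counts in a library, the least in knockout replicate 2 and the most in knockout replicate 3. Their biological coefficient of variation as estimated by edgeR, the spread beyond counting error, ran from 14.5% for Nfe2 to 125% for Ppbp, with a median of 29.6% for the 9 tested, beside 51.0% over all genes tested. These medians are not matched for level, and most members tested stood above most genes tested in level per kilobase. A separate list of 9 mature megakaryocyte and platelet markers summed to 116, 159 and 182 TMM-normalised CPM in the wild-type libraries and to 208, 196 and 169 in the knockout libraries. Most of each sum was Gng11, at 86.6, 119 and 129 CPM in wild-type and 126, 132 and 107 CPM in knockout replicates 1 to 3. The sums overlapped, and Gp6 and Myl9 were at 0 in all libraries. The 5 markers that could be tested all had higher values in knockout, beside 50.9% of all genes tested. That direction was not stable. The log2 fold change of Alox12 was -0.15 by limma-voom, and that of Gng11 fell to -0.04 with a library left out. Only F5 had an unadjusted p under 0.05 by edgeR (0.0317), beside 3.47% of all genes tested in that direction, and none passed after adjustment. F5 had 0, 15 and 0 counts in wild-type and 368, 0 and 126 counts in knockout replicates 1 to 3. Its unadjusted p by limma-voom was 0.467. Beside Gp5 and Clec1b, which were highest in wild-type replicate 2, stand the neutrophil genes of that library, whose part was not tested.

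**Figure D5:**
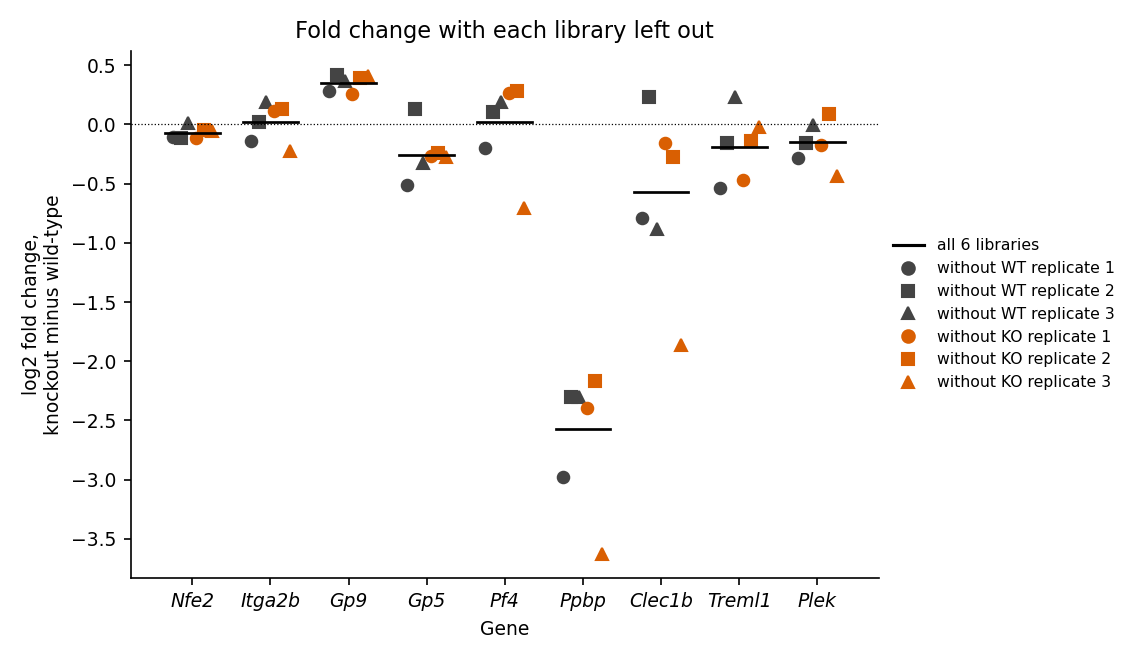
Log2 fold change, knockout minus wild-type, of the 9 members tested with all 6 libraries (black line) and with each library left out in turn (symbols). Gp9 stays above 0 (0.25 to 0.42) and Ppbp below 0 (-3.63 to -2.17), while each of the other 7 lies on both sides of 0.

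The surrounding programme was examined with gene lists on which no gene passed at an adjusted p under 0.05 in either direction, as over all genes. Of 20 megakaryocyte transcription factor genes all were tested, with 12 higher and 8 lower values in knockout and a median log2 fold change of 0.10. Over the 6 libraries Lmo2 stood at 837 to 1054 CPM and Meis1 at 488 to 618 CPM, and Srf had the smallest p (49, 3 and 0 counts in wild-type, 311, 92 and 65 in knockout; unadjusted p = 0.0226, adjusted p = 0.789). Gata1, the master factor of this lineage and of red cells, stood at 127, 58.5 and 139 CPM in wild-type and 138, 125 and 117 CPM in knockout. Fli1 had 239, 208 and 211 CPM, then 228, 205 and 290.0 CPM, in the same order, so the genotypes overlapped for both. Runx1 ranged from 143 to 206 CPM in wild-type and from 218 to 241 CPM in knockout, every knockout library above every wild-type library (log2 fold change 0.30 ± 0.18, SE; adjusted p = 0.911). Of the 20 genes 3 had that order and 0 the opposite one, beside 5.91% and 4.43% of all genes tested, and the difference was not tested.

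Slamf1, which encodes the CD150 of the gate, had 108, 141 and 174 CPM in wild-type libraries and 117, 104 and 129 CPM in knockout libraries, overlapping.

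Of 25 genes of platelet adhesion and activation receptors 19 were tested, 12 higher and 7 lower in knockout, with a median of 0.16. P2rx1, the ATP-gated channel of platelets, stood at 68.5, 69.2 and 87.7 CPM in wild-type and 153, 98.1 and 123 CPM in knockout, without overlap (edgeR unadjusted p = 0.0143, adjusted p = 0.752). Every knockout library lay above every wild-type library for 2 of the 19 genes tested, and below for 0, beside 5.91% and 4.43% of all genes tested. Cd9 stood at 255 to 388 CPM over the 6 libraries and F2r, a thrombin receptor gene, at 260.1 to 371 CPM. Of 26 granule genes 24 were tested, 13 higher and 11 lower, with a median of 0.04. Srgn, which encodes the granule proteoglycan serglycin, stood at 819 to 1003 CPM and Vamp8 at 394 to 563 CPM. Vwf, the granule adhesion protein gene that marks platelet-biased stem cells, stood at 93.2, 65.0 and 70.0 CPM in wild-type and 109.6, 88.5 and 120.2 CPM in knockout; the groups overlapped at wild-type replicate 1, and the log2 fold change was 0.50 ± 0.23 (SE; adjusted p = 0.866). Of 34 cytoskeleton and signalling genes 32 were tested, 23 higher and 9 lower, a median of 0.11. Rap1b and Fermt3, regulators of integrin activation, stood at 894 to 1374 and at 758 to 942 CPM, and Pde5a had the smallest p (81, 17 and 94 counts in wild-type and 298, 109 and 327 in knockout; adjusted p = 0.752). All 14 genes of the platelet-biased stem cell list were tested, with 8 higher and 6 lower values and a median of 0.08, and Gata2 stood at 396 to 696 CPM. Clu had the smallest p of that list and of the granule list, at 54.3, 60.7 and 33.2 CPM in wild-type and 68.1, 115 and 179 CPM in knockout (adjusted p = 0.752).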

How the data were processed

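The authors deposited a table of raw read counts per Ensembl gene, 1 column per library, for 3 wild-type and 3 Dcaf8 knockout libraries of 50 LT-HSCs. Per the labels' protocols the cells went through full-length mRNA amplification, tagmentation and PCR. The build mm39 is named without a role, as are HTSeq 1.99.2, HISAT2 2.2.1, DESeq2 1.38.3, Trimmomatic 0.39 and Picard 2.26.1, per the submitters' processing notes. The sources used here do not state the annotation release or strand setting. The labels name no molecular identifiers, and floors of 3 counts cover counting error only.

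The raw counts were tested with edgeR 4.0.16 (filterByExpr with a minimum count of 10, TMM, robust quasi-likelihood fit, newer method, genotype as the only term, Benjamini-Hochberg adjustment over all genes). Standard errors came from the F statistic, and 95% intervals used the total degrees of freedom. DESeq2 1.42.0, limma-voom 3.58.1 with sample weights, RLE factors, other filters, the legacy fit, a replicate block and each library left out were alternatives. The fits were run on simulated counts, with a check on median fold change estimates only and none on the genes called. Symbols matched 94.1% of identifiers. Exon lengths and overlaps came from GENCODE M21 (GRCm38), another build than the counts, and sequences from RefSeq GRCm38.p6. The neutrophil sums, the Cd48 and Xist values and the floors of Gp6, Myl9 and F13a1 are CPM of the total count. Other levels are TMM-normalised CPM, among them the mature marker sums and the Ppbp floor.

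The 10 members and all lists were chosen with earlier results of these data known. Genes named are the members and Dcaf8, 10 partner or regulator genes, and of each list without a call the 2 with the highest mean CPM (not corrected for length) and the 1 with the smallest p. Selp, F5, Tubb1, Gng11, Gp6, Myl9 and F13a1 were named after their values were seen. Results that need 1 of the genes so chosen, and its pathway list, are not reported here.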

Additional observations from a re-analysis of the deposited data

How the results depend on the processing

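No genes were called at an adjusted p under 0.05 in the edgeR fit with all 6 libraries (849 at an unadjusted p under 0.05), in any of the other edgeR fits or by limma-voom (775 at an unadjusted p under 0.05); that unadjusted count was 559 with the legacy fit and 714 to 1445 with a library left out, the most without wild-type replicate 1, while DESeq2 called 153, none of them a member. The median log2 fold change of the members ranged from -0.27 to 0.02 over the alternatives, positive without wild-type replicates 2 or 3 or knockout replicate 2, and with 1 to 5 members higher in knockout. Each move from the fit with all 6 libraries was smaller than 0.274, the SD between replicates of the members' median log2 CPM. That SD is of a level within a genotype and does not measure the spread of a fold change. No member was called in any of 125 fits of a member under an alternative, and the direction turned in 13 of them, for 7 of the members; the cause was not tested. Pf4 turned to -0.0094 with DESeq2, -0.22 with limma-voom and -0.0758 with the replicate block, and Itga2b to -0.0041 with limma-voom. With a library left out, the log2 fold change ranged from -0.70 to 0.28 for Pf4 (negative without wild-type replicate 1, at -0.20, or knockout replicate 3), -0.23 to 0.19 for Itga2b (negative without the same libraries), -0.51 to 0.14 for Gp5 and -1.86 to 0.23 for Clec1b (both positive without wild-type replicate 2), -0.115 to 0.0131 for Nfe2 and -0.54 to 0.23 for Treml1 (both positive without wild-type replicate 3), and -0.43 to 0.0928 for Plek (positive without knockout replicate 2). Gp9 and Ppbp kept their direction in every fit. Dcaf8 passed with DESeq2 (adjusted p = 1.98e-09). The strict filter (5 CPM in 3 libraries) left 8 members. TGTGGT was found for 0 members on the forward strand alone. Same-numbered libraries did not deviate together (correlations of 0.0593, -0.0381 and 0.0058), so the block is no pairing; with it 0 genes were called, and 807 had an unadjusted p under 0.05. Each library came from 50 cells. Gp1bb had 0 to 34 counts per library, Clec1b 23 to 270 and Ppbp 0 to 470. The intervals of Ppbp and Clec1b are wide, and their biological coefficients of variation were 125% and 92.5%.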

Other observations

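Selp, which encodes P-selectin, a granule membrane protein of platelets that also marks aged stem cells, was picked after its values were seen. It had 295, 967 and 50 counts in wild-type and 591, 1754 and 3435 counts in knockout replicates 1 to 3. Its mean was 22.0 ± 22.7 CPM in wild-type and 101 ± 67.2 CPM in knockout (SD, n = 3 per group), the genotypes overlapped at wild-type replicate 2, and the log2 fold change was 2.15 ± 0.84 (SE; edgeR unadjusted p = 0.0369, adjusted p = 0.841).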
